A study of Mus musculus with 6 samples.

Results

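Chromatin accessibility was mapped by ATAC-seq, in which the transposase Tn5 inserts sequencing adapters into open DNA, in mouse epiblast stem cells. The regions described are the strongest peaks found in 1 of the 2 deposited peak lists and absent from the other. They were chosen from the peak values themselves: a peak lay on an autosome, its −log10 q was at least 20, and it did not overlap any peak of the other list by 1 bp. Of 342780 autosomal peaks in both lists, 838 met the rule, 190 in the list named FM and 648 in the list named KO, called FM-only and KO-only peaks here. The FM-only peaks were 0.0928% of the 204650 autosomal FM peaks and 0.936% of the 20289 with a −log10 q of at least 20. The KO-only peaks were 0.469% of 138130 and 2.95% of 21947. Since the rule used strength and overlap, both are given as a description and not as a finding.

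The 6 libraries came from epiblast stem cells kept on irradiated mouse embryonic fibroblasts with 10 ng/mL bFGF and 20 ng/mL activin A, then grown for 2 days as embryoid bodies with serum. In 3 libraries the cells were Mixl1 knockouts, and in 3 the cells carried an inducible Mixl1 and received doxycycline at 1 µg/mL for 24 h. Each library started from 50000 cells and had 11 PCR cycles, and the labels do not say whether the libraries of a group were separate cultures or which clones the lines came from. The labels record doxycycline for the inducible cells only, so Mixl1, doxycycline and the cell line cannot be told apart. No label explains the name FM, and that list was assigned to the induced group by elimination. With a single list per group there is no replicate error, and the groups were not tested against each other.

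Mixl1, a homeobox gene, encodes a transcription factor active in the primitive streak, where epiblast cells become mesoderm and endoderm. An ATAC-seq peak marks a promoter, an enhancer or another site where nucleosomes are displaced, and active promoters in mammals often lie in stretches rich in CpG dinucleotides. A peak found in only 1 of a pair of cell lines can also mark DNA that 1 line lacks or carries in another copy number, or sequence in which the lines differ. Peak lists alone do not separate these, and no cause was tested here.

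Of the FM-only peaks 13 (6.84%) overlapped a RefSeq promoter window (250 bp before to 50 bp after an annotated start, 300 bp in all). Of the KO-only peaks 25 (3.86%) did. This share was not computed for other peaks, so the counts are a description only. The 6 windows below, on build GRCm38.p6 (mm10), were picked after the values were seen because they carry the patterns described next: 2 sequences that recur in the genome, both under FM-only peaks, the promoter in the longest FM-only stretch, and 3 KO-only promoters. Letters run 5′ to 3′ on the gene's strand, and capitals mark CpG dinucleotides.
Gm3448, chr17:15010135-15010434, minus strand: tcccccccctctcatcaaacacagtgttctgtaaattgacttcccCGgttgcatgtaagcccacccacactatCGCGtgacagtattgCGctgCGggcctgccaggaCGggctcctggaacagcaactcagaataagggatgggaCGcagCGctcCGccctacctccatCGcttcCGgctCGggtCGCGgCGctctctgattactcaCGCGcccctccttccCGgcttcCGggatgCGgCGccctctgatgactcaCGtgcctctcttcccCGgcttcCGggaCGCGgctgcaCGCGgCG
Gm3255, chr17:14993128-14993427, minus strand: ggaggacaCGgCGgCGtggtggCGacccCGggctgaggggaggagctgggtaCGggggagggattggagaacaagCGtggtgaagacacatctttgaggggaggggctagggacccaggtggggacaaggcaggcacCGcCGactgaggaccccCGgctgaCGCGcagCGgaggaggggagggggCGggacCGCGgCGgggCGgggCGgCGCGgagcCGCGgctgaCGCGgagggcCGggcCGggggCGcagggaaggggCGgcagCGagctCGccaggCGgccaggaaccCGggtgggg
Col11a1, chr3:114030290-114030589, plus strand: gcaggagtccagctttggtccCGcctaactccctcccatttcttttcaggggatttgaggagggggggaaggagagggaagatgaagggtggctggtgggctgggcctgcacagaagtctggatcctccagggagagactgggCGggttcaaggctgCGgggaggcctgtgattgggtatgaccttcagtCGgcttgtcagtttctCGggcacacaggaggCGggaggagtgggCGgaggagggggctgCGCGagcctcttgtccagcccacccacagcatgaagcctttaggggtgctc
Slc25a25, chr2:32431102-32431401, minus strand: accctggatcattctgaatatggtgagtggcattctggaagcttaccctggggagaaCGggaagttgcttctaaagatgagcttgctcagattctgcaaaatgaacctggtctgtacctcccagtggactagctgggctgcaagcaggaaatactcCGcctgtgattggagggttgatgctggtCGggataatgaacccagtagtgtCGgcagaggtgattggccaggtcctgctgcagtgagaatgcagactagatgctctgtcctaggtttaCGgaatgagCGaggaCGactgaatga
Apela, chr8:65037287-65037586, minus strand: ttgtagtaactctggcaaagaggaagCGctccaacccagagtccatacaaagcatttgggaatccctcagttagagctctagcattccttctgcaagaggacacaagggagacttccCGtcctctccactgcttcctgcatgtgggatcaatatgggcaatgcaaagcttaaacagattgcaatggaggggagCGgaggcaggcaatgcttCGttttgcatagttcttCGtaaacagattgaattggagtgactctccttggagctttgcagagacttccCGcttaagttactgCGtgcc
Nanog, chr6:122707239-122707538, plus strand: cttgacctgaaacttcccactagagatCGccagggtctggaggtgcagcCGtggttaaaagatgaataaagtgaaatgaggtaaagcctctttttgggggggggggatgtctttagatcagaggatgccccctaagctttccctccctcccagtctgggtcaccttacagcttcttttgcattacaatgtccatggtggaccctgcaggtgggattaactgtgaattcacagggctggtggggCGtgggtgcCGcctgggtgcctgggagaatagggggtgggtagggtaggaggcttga

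The first pair held 29 and 33 CpGs and are not unique. The Gm3448 window was identical over all 300 bases to the windows of Tcte3, a dynein light chain gene, and Gm3417, and the Gm3255 window to that of Gm52298. These 5 windows lie in a repeated array of chromosome 17 with a spacing of 31.4 kb between copies. An FM peak covered each of the 5, with folds (summit pileup over local background, the authors' value) of 4.82 at Gm3417, 5.34 at Gm3448, 4.87 at Tcte3, 3.15 at Gm3255 and 4.14 at Gm52298. No KO peak covered any of them. The FM peak at Gm3417 met a KO peak outside the window and so was not FM-only, while the other 4 were. Between these promoters the KO list was not empty: KO-only peaks at chr17:14987235-14987794 and chr17:14996348-14996581 had folds of 3.69 and 3.58. At a pair of peaks present in both lists, the KO folds were 8.76 and 7.34 beside FM folds of 4.81 and 3.07. The array thus held strong peaks of both lists, with the CpG-rich promoters in the FM list only. The handling of reads that match several copies is not stated in the labels, so a fold cannot be assigned to 1 copy with certainty.

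**Figure D1:**
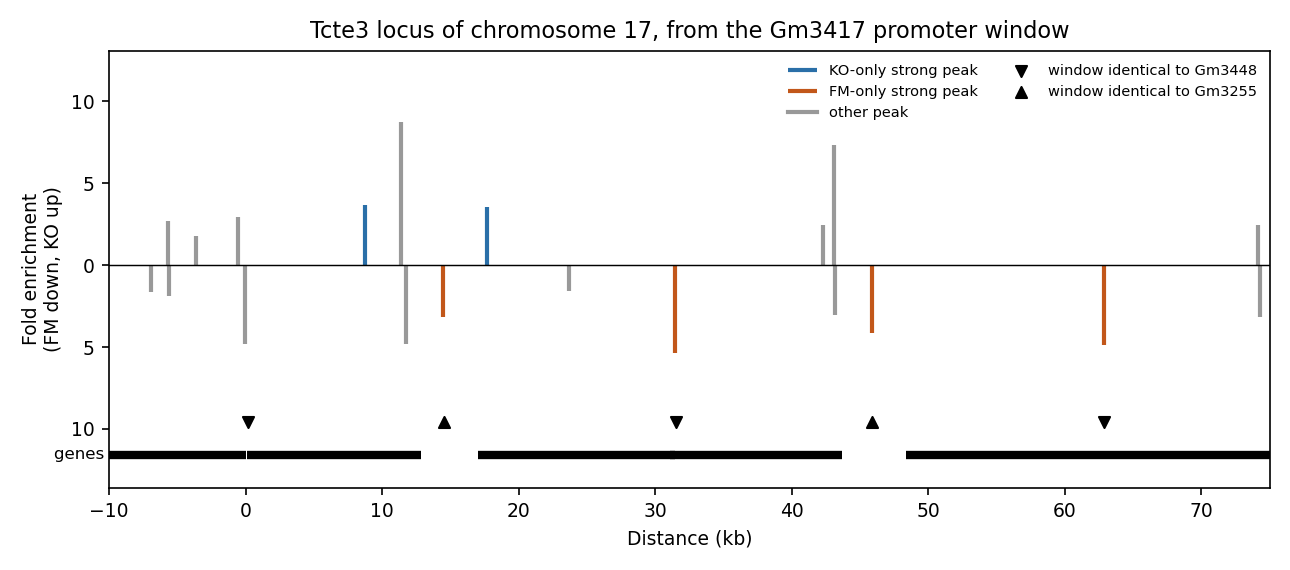
Peaks of both lists around Tcte3 on chromosome 17. The x axis gives the distance in kb from the Gm3417 promoter window and the y axis the fold enrichment, KO peaks upward and FM peaks downward, with coloured bars for peaks found in 1 list only at a −log10 q of at least 20. The triangles mark the 5 windows that share 2 sequences, each under an FM peak and no KO peak; the KO bar left of the first triangle ends before that window.

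Near copies of a promoter window were counted over all windows. At least 50% of the 25-base words recurred in another promoter window for 5 of the 16 windows under FM-only peaks (31.2%) and 2 of the 29 under KO-only peaks (6.90%). Among all 31396 autosomal windows the share was 3.27%, and under strong peaks present in both lists it was 0.306% (FM) and 0.400% (KO). Without the Tcte3 array, the counts were 1 of 12 and 2 of 29, so the FM share rests on that locus. The fifth FM-only case was H3c14, a histone H3 gene whose window shared 85.5% of its words with that of H3c15. The 2 KO-only cases were Gm14410 and Gm14326 on chromosome 2, with 71.7% and 61.6%. The median CpG count per window was 10.5 under FM-only peaks and 7 under KO-only peaks, beside 23.0 under strong shared peaks of either list and 7 over all windows. The FM-only windows include the identical ones of the Tcte3 array, with 29 or 33 CpGs. Among the KO-only windows Gm10410 and Nanog each count more than once. Medians without repeated windows were not computed, so no difference between the sides is read from these. Of the printed KO-only promoters Slc25a25, a mitochondrial ATP-Mg/phosphate carrier, and Apela, which encodes a peptide ligand of the apelin receptor, held 7 CpGs each, and Nanog, a core pluripotency factor, held 4. TGAGTCA, the AP-1 motif, searched on both strands, was in 2 of the 16 FM-only windows (12.5%), Gm3448 and Tcte3, which are 1 sequence. It was in 1 of the 29 KO-only windows (3.45%) and in 5.26% of all windows. TAATTA, a core bound by many homeobox factors, was in 0 of 16 and 1 of 29 windows and in 5.27% of all. The letters CCCTC, a piece of the CTCF motif, were in 14 of 16 and 24 of 29 windows and in 66.3% of all. The Gata motif WGATAR was in 6.25% and 17.2% of the FM-only and KO-only windows and in 29.5% of all. Under strong shared peaks (FM and KO) the shares were 3.02% and 3.04% for TGAGTCA and 1.66% and 1.79% for TAATTA. There they were 78.3% and 77.9% for CCCTC and 14.6% and 14.8% for the Gata motif.

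At the promoter of Slc25a25, the KO-only peak chr2:32431031-32431531 had a fold of 5.47, with 220 fragments at its summit over a background of 39.4. These pileups were recovered from the fold and p-value that the authors deposited. The peak at Apela, chr8:65037037-65037562, had a fold of 4.09 and a pileup of 139, and that at Nanog, chr6:122707180-122707632, had a fold of 2.87 and a pileup of 123. At Nanog both neighbouring KO peaks were shared with the FM list, the nearest FM peak was 0.906 kb away, and no other KO peak lay in the gap between FM peaks. Other protein-coding genes with a KO-only peak over a promoter window included Ackr3 (fold 2.76), a chemokine receptor, Tgif1 (2.40), a homeodomain repressor, and Scn2a (3.65), a sodium channel of neurons. On the FM side Col11a1, a fibrillar collagen, had a peak of fold 3.28 and a pileup of 96. It lay 400 kb from the nearest KO peak, inside 2012 kb without one.

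Most of these peaks stood close to the threshold, with a few tall exceptions. The median −log10 q was 22.5 on the FM side and 25.7 on the KO side. The median fold was 3.21 over the FM-only peaks, from 1.17 to 19.1, and 3.39 over the KO-only peaks, from 1.17 to 9.82. The median pileup was 112 and 117, for the 186 and 643 peaks where it could be recovered. Of these, 67 FM-only and 313 KO-only peaks sat on the genome-wide background of 28.6 and 28.8 fragments, with medians of 99 and 106. Other peaks on that background were listed from a pileup of 45 (FM) and 46 (KO), so both lists reach well below the height of these sites, but a site left out of a list has no value. The peaks nearest the threshold on the inside had a −log10 q of 20.011 (FM, fold 3.25) and 20.017 (KO, fold 2.33), and the nearest left outside 19.985 (FM, fold 2.22) and 19.997 (KO, fold 3.06). The ratio of the sides moved with that threshold. The FM list gave 22.7% of the 838 peaks (95% exact binomial interval 19.9 to 25.7, which here and below covers the counting of peaks only). At a −log10 q of at least 15 it gave 42.9%, from 1037 FM-only and 1379 KO-only peaks. At 30 it gave 11.2%, from 23 and 183.

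The tallest FM-only sites were a pair on chromosome 4. The peak chr4:122122756-122123162 had a fold of 19.1 and a summit pileup of 563 over the genome background of 28.6, and chr4:122455130-122455490 had a fold of 18.5 and a pileup of 546. Both were narrow, 407 and 361 bp, and lay 178 and 141 kb from the nearest protein-coding gene, Gm10573. They were the only FM peaks in 1349 kb without a KO peak, and the 500 kb on either side held 48 and 37 KO peaks. The next were a peak of fold 10.3 in Gnb1l on chromosome 16, and one of fold 8.12 and 239 fragments near Abcb11, the bile salt export pump. Only 7 of 190 FM-only peaks (3.68%) reached a fold of 5. Eea1, an early endosome tether, stood near a peak of fold 5.75, Cox7c, a subunit of cytochrome c oxidase, was 311 kb from one of 5.01, and Tyrp1, a melanin synthesis enzyme, was 831 kb from one of 4.67. Others of the 15 highest lay at Gm3435 (5.34 and 4.14) and Ermard (4.87) in the Tcte3 array, and at or near Lama3 (3.96), Eapp (3.79), Rnf150 (3.70) and Snx6 (3.69).

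On the KO side 23 of 648 peaks (3.55%) reached a fold of 5. The highest, chr14:122568868-122569218, lay inside Pcca, a subunit of propionyl-CoA carboxylase, with a fold of 9.82 and 292 fragments over 28.8. It was 351 bp wide and the only KO peak in 85.5 kb without an FM peak. Peaks in Commd10 (fold 9.32) and 448 kb from Gramd3 (9.01) followed, both on chromosome 18. A peak of 7.27 stood 19.3 kb from Vmn2r102, a vomeronasal receptor gene, in 1464 kb without an FM peak, and one of 6.50 in Mamdc2. The others of the 15 highest, with folds from 5.40 to 5.90, lay at or near Cypt12, Csmd3, Snx29, Trim24, Raet1d, Mob3b, Zscan4f, Slc25a25, 9230019H11Rik and Il7. The lowest folds went with high backgrounds or values that gave no pileup. The KO-only peak chr9:3033787-3033992, 301 kb from Alkbh8, had 3614 fragments over a background of 2353 and a fold of 1.54. Of the FM-only peaks 31 (16.3%) and of the KO-only peaks 79 (12.2%) had a background at least 2 times that of the genome.

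**Figure D2:**
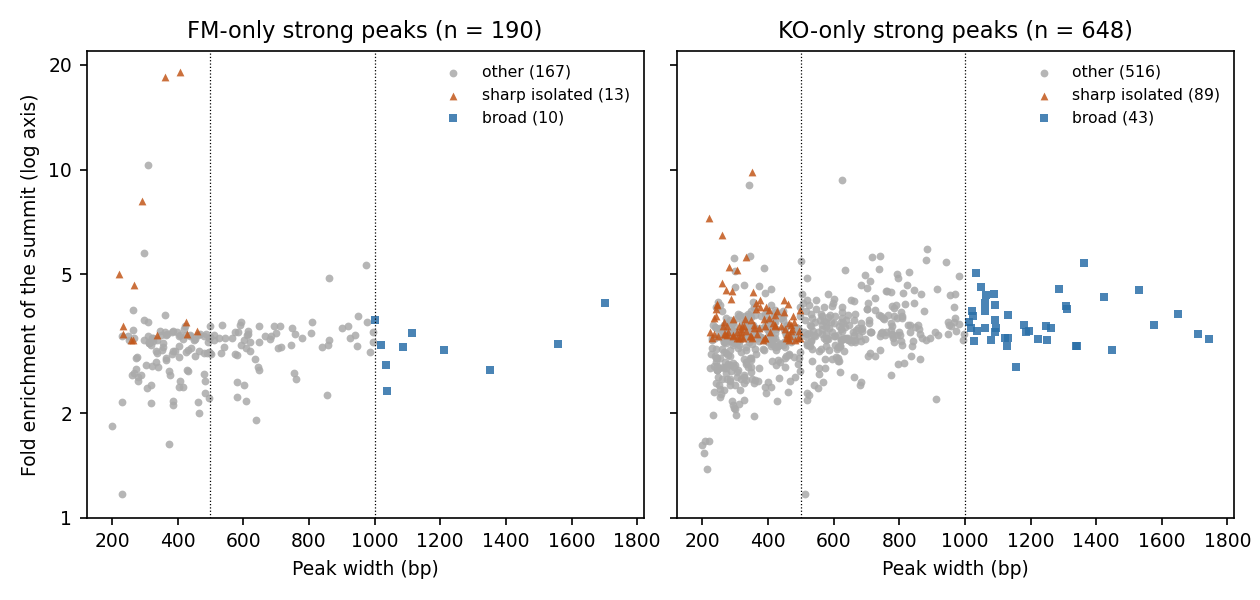
Width in bp (x axis) and fold enrichment of the summit (y axis, log scale) of each FM-only peak (left) and KO-only peak (right). Triangles are sharp isolated peaks, squares broad peaks, and dotted lines mark 500 and 1000 bp. The tallest peaks on both sides are narrow, and most points lie near a fold of 3.

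These peaks were narrower than shared peaks of like strength, but wider than peaks without overlap in general. A width under 500 bp (sharp) was found for 114 of 190 FM-only peaks (60.0%) and 372 of 648 KO-only peaks (57.4%), and a width of at least 1000 bp (broad) for 10 (5.26%) and 43 (6.64%). For scale, peaks shared by both lists with a −log10 q from 20 to 30, a set chosen after the values were seen to bring the strengths closer, were sharp in 19.7% (FM) and 26.7% (KO) and broad in 30.8% and 24.3%. Their median widths were 779 and 695 bp, beside 456 and 453 bp for the FM-only and KO-only peaks. All FM and KO peaks without overlap had median widths of 281 and 267 bp, and the whole lists 345 and 351 bp. A narrow peak has less length over which to meet a peak of the other list, and the part of width in the shares below was not tested. Sharp and isolated peaks, with no other peak of their own list within 10 kb, numbered 13 FM-only (6.84%) and 89 KO-only (13.7%, 11.2 to 16.6), beside 1.21% and 2.65% of the shared set. Many lay far from the other list: 8 of 13 and 54 of 89 lay in stretches of over 100 kb without a peak of the other list, and 4 and 26 lay over 100 kb from any protein-coding gene. Their median distance from a gene was 30.1 and 22.6 kb, and 3 and 23 lay in a gene body. Their median stretch was 204 and 142 kb. Their median fold, 3.55 on both sides, was slightly above that of all peaks in 1 list only.

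Broad peaks were a different group. The 10 FM-only ones lay in peak-rich DNA, with a median of 35.5 KO peaks within 100 kb, none in a stretch over 100 kb, and a median background of 54.9 fragments. The 43 KO-only ones had a median of 9 FM peaks within 100 kb, 16 lay in stretches over 100 kb, and their median background was 30.1. The widest FM-only peaks were at Gm3435 (1701 bp) and 9030025P20Rik (1558 bp), which cover the Gm52298 and Gm3255 windows of the Tcte3 array, then Lmf1 (1353 bp), Ephx3 (1210 bp) and 3425401B19Rik (1115 bp). Among the widest KO-only peaks were those near Ino80c (1743 bp), Cyp2b23 (1710 bp), Ell2 (1650 bp) and Tasp1 (1529 bp).

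The sides differed in position. Within 1 kb of either gene end (protein-coding genes) lay 18 FM-only summits (9.47%) and 39 KO-only summits (6.02%), beside 25% and 19.9% in the shared set. Intergenic summits were 43.7% (36.5 to 51.1) of the FM-only and 61.1% (57.2 to 64.9) of the KO-only peaks, beside 34.6% and 39.6%. Summits over 100 kb from any protein-coding gene were 9 (4.74%) and 107 (16.5%), beside 3.65% and 5.20%. By these shares KO-only peaks were more often far from genes than FM-only peaks and than shared peaks of like strength. The intervals count peaks as independent, although many lay near each other, and do not cover differences between cultures. They are therefore no test of the sides.

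The neighbours on either side show whether a peak is an exception among shared sites or one of a run. The neighbours are the next peaks of the same list, of any strength. Both were shared with the other list for 41 FM-only peaks (21.6%, 16.0 to 28.1) and 237 KO-only peaks (36.6%, 32.9 to 40.4), beside 32.9% and 55.9% in the shared set. Neither was shared for 60 (31.6%) and 169 (26.1%), beside 19.3% and 6.90%. Counted singly, 45.0% of 380 neighbours of FM-only peaks and 55.2% of 1296 neighbours of KO-only peaks were shared, where 49.1% of all FM and 72.5% of all KO autosomal peaks were. The interval for the neighbours of FM-only peaks, 39.9 to 50.2, holds the value of the whole list, and that for the neighbours of KO-only peaks, 52.5 to 58.0, lies below it. Among sharp isolated peaks both neighbours were shared for 5 of 13 on the FM side (38.5%, 13.9 to 68.4) and 31 of 89 on the KO side (34.8%). The wide FM interval holds both the 21.6% of all FM-only peaks and the 32.9% of the shared set. With 13 peaks no difference from either is read on that side. The KO share was near the 36.6% of all KO-only peaks and below the 55.9% of the shared set.

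**Figure D3:**
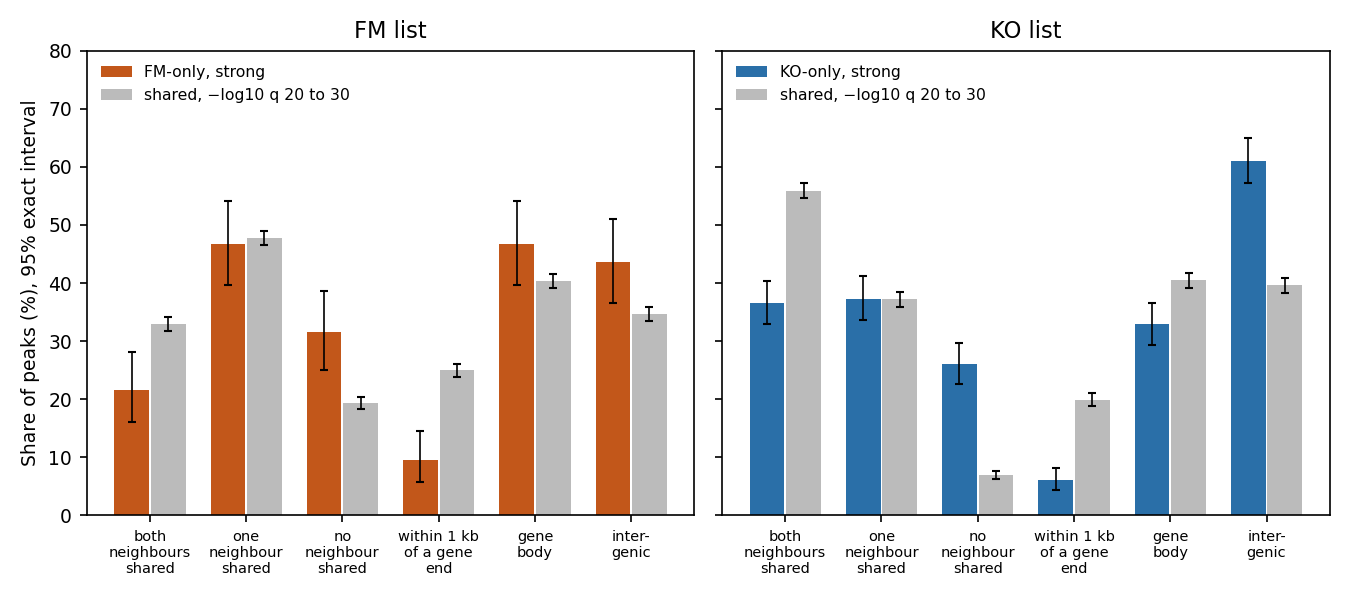
Share of peaks (y axis, %) with both, one or no neighbouring peak shared with the other list, and within 1 kb of a gene end, in a gene body or between genes, for the FM list (left) and the KO list (right). Coloured bars are peaks found in 1 list only, grey bars shared peaks with a −log10 q from 20 to 30, and error bars 95% exact binomial intervals. KO-only peaks had more cases with no shared neighbour (26.1% against 6.90%) and between genes (61.1% against 39.6%), and fewer with both neighbours shared (36.6% against 55.9%) and at gene ends (6.02% against 19.9%).

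A private stretch is the DNA around a peak between the nearest peaks of the other list. Its median length was 18.4 kb for FM-only peaks and 22.2 kb for KO-only peaks, beside 13.5 and 8.91 kb for all FM and KO peaks without overlap. Stretches over 100 kb held 21 FM-only peaks (11.1%) and 180 KO-only peaks (27.8%), and stretches over 1 Mb 4 and 35. Many were close to the other list all the same. The nearest peak of the other list was within 1 kb for 54 FM-only peaks (28.4%) and 159 KO-only peaks (24.5%). The lower quartile of that distance was 0.820 kb for FM-only peaks, beside 0.906 kb for all FM peaks without overlap. It was 1.09 kb for KO-only peaks, beside 0.537 kb for all KO peaks without overlap. By this measure FM-only peaks were about as close as FM peaks without overlap in general, and KO-only peaks were less close. A long stretch can be a desert for both lists, so the peaks of the own list in it matter: 11 FM-only and 75 KO-only peaks lay in stretches over 100 kb that held at least 5 peaks of their own list. The shares in long stretches were not computed for all peaks without overlap. The sides are also bounded by lists of unlike size, since the KO list had fewer peaks. These counts are therefore a description only.

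Some stretches without a peak of the other list held many peaks of their own. On the KO side the 35.9 kb chr12:103716388-103752301 at Serpina1b, an alpha-1-antitrypsin gene, held 13 KO peaks and no FM peak, while the 500 kb on either side held 147 and 91 FM peaks. At Stk3, a Hippo pathway kinase, 128 kb held 18 KO peaks, with 54 and 35 FM peaks beside it. At Nsf, an ATPase of vesicle fusion, 112 kb held 13, with 41 and 70. On the FM side 149 kb at Plxna4, a semaphorin receptor, held 29 FM peaks and no KO peak, beside 16 and 17 KO peaks in the flanks, where 20.6% of the FM peaks were shared. The 129 kb of Adgrf4 and Adgrf2 held 20, beside 5 and 42, and 77.4 kb at Srpk2, a splicing kinase, held 15, beside 26 and 52. Galk2 lay in 215 kb with 15 FM peaks, beside 31 and 26 KO peaks. Dab1, an adaptor of reelin signalling, lay in 141 kb with 12, beside 1 and 16, and 23.0% of the FM peaks in its flanks were shared. In the flanks at Galk2, Adgrf4 and Srpk2 the shared part was 33.9%, 36.9% and 46.9%, beside 49.1% of all autosomal FM peaks. Most FM peaks in these flanks met no KO peak either, but this also held for 50.9% of the whole FM list, and Srpk2 was close to that. On the KO side 64.8% of the KO peaks in the flanks were shared at Serpina1b, 46.6% at Stk3 and 50.4% at Nsf, beside 72.5% of all autosomal KO peaks. Each of these stretches held 1 strong peak of its list, with a fold from 2.64 (Adgrf4) to 4.05 (Serpina1b), and the rest were weaker.

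The longest stretches with at least 3 peaks of the own list were longer on the KO side. There they were 3182 kb beyond Slitrk5, with KO-only peaks of fold 4.15 and 4.72, 2554 kb at Khdrbs3, an RNA-binding protein gene, 2534 kb near Cdh10, a cadherin gene, and 2329 kb near Nrg3, a neuregulin. The FM flanks of the stretch near Cdh10 held 5 and 3 peaks per 500 kb, so FM peaks were rare around it as well. On the FM side only Col11a1 came near that length, followed by Lancl1 (269 kb), Col19a1 (236 kb), Galk2 (215 kb) and Eea1 (165 kb).

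The private stretch with the most KO-only peaks, 8, lay over Zscan4 on chromosome 7. Zscan4 genes encode zinc finger proteins of the 2-cell embryo and of a rare fraction of embryonic stem cells. The 1515 kb chr7:10495748-12010321 held 12 KO peaks, 8 of them strong, and no FM peak, across 14 protein-coding genes (Zscan4b, Zscan4c, Zscan4d and Zscan4f, Nlrp4b, and 9 vomeronasal receptor genes). The 8 peaks had folds from 3.35 to 5.52 and widths from 457 to 914 bp. None touched a gene end: the closest stood 13.1 kb from Zscan4f (fold 3.92) and 13.2 kb from Zscan4c (3.38). The tallest, chr7:11464215-11465094, had 179 fragments over a background of 31.6. The FM flanks held 2 and 12 peaks.

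**Figure D4:**
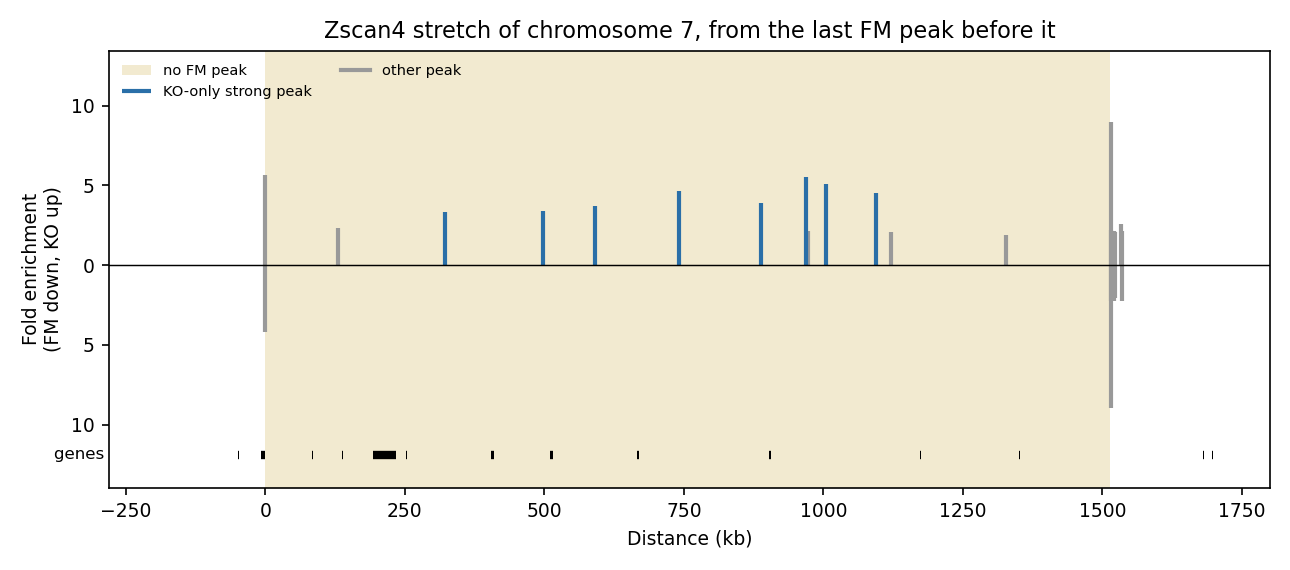
Peaks of both lists in and around the Zscan4 stretch of chromosome 7. The x axis gives the distance in kb from the last FM peak before the stretch, the y axis the fold enrichment, KO upward and FM downward, and black boxes mark protein-coding genes. All 8 strong KO-only peaks, with folds from 3.35 to 5.52, fall in the shaded 1515 kb without an FM peak.

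Some of the peaks lay near others of their side. Another peak of the same side lay within 1 Mb for 55 FM-only peaks (28.9%) and 347 KO-only peaks (53.5%). This share rises with the number of peaks, and the gap between the sides changed with the rule. It was not computed for equal numbers of shared peaks, so it and the runs below are a description only. At a −log10 q of at least 15 the shares were 75.9% and 75.4%, of 1037 and 1379 peaks. At 30 they were 34.8% and 35.5%, but of 23 and 183 peaks. With no peak of the other list within 1 kb they were 16.9% and 45.6%, of 136 and 489 peaks. Runs of at least 5, with gaps under 1 Mb, numbered 0 on the FM side, where the largest held 4, and 11 on the KO side, where the largest held 9. One run of 9 was the Zscan4 region with a peak near Vmn2r50, and the other lay at chr8:19682212-20835123 near Gm40469 and Defb33, a beta-defensin gene. Over the Speer genes, chr5:14959413-15681438, the 7 KO-only peaks stood among 71 KO peaks, of which 47 met no FM peak, while 1 of 27 FM peaks met no KO peak. At chr4:145366236-147066713 near Zfp980, Zfp600 and Rex2, there were 70 of 138 against 6 of 78, and at chr14:6060846-7266344 near Gm3411 and Gm3727, 36 of 87 against 2 of 56. Over all autosomal peaks 27.5% of the KO and 50.9% of the FM list met no peak of the other. Not all runs were like these. At chr17:21367368-24874946, with 8 KO-only peaks, the counts were 135 of 439 against 159 of 455. At chr12:102597339-105550195, with 6, they were 220 of 702 against 317 of 816. Sfi1, a centrosomal protein gene, was nearest to 6 KO-only peaks within 71.1 kb. Runs of 4 FM-only peaks lay on chromosome 17 only, 4 in number: the Tcte3 array, Btbd9 to Abcg1, Rrp1b to Olfr1564 and Notch4 to H2-Q7.

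The nearest genes were counted by the start of their symbols, for 16 starts that were picked with earlier results of these data known and that mark mostly families with clustered copies. On the KO side 87 KO-only peaks (13.4%, 10.9 to 16.3) had such a gene nearest, beside 5.67% of strong shared KO peaks. Of FM-only peaks 10 did (5.26%), beside 5.48%. Gm symbols, which mark predicted genes and not a family, gave 41 of the 87 (6.33% beside 2.42%), zinc finger genes (Zfp) 19 (2.93% beside 2.43%, near the background) and vomeronasal receptors (Vmn) 15 (2.31% beside 0.0845%). Of FM-only peaks 0 were nearest to a Vmn gene, beside 0.0796% of strong shared FM peaks, and 3 to an olfactory receptor (1.58% beside 0.189%). At least 2 KO-only peaks shared a nearest gene for 34 genes, among them Sfi1 (6), Gm40469 (4), Gm3727 (3) and Zscan4f (3). Pairs inside 1 gene included Cdh18 (folds 3.62 and 4.15), Cpa6 (3.44 and 4.89), Snx29 (3.66 and 5.66), Hdac9 (3.32 and 3.82) and Nrcam (3.45 and 4.02). On the FM side only Col19a1, Dnah8 and Gm3435 recurred, with 2 peaks each. Genes nearest to peaks of both sides were 9030025P20Rik, Dnah7a, Fam209, Fcgr3, Myo10, Nek6, Smim23 and Snx6. FM-only and KO-only peaks within 100 kb of each other made 29 pairs, the closest at 2.34 kb in the Tcte3 array, and at Snx6 an FM-only peak of fold 3.69 stood 3.19 kb from a KO-only peak of 3.28.

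By chromosome, FM-only peaks were 2.20% of the strong FM peaks on chromosome 17 (26 of 1180) and 0.169% on chromosome 18 (1 of 593). KO-only peaks were 5.74% of the strong KO peaks on chromosome 18 (43 of 749), 4.21% on 13, 4.13% on 17 (51 of 1235) and 1.58% on chromosome 4 (23 of 1453). On chromosome 13 the FM share was 1.42%, so chromosomes 13 and 17 ranked high on both sides. On chromosome 18 the 43 KO-only peaks faced 1 FM-only peak. Chromosomes 15 and 16 followed with 39 to 3 and 24 to 2. Within the first 5 Mb of a chromosome, next to the centromere in mouse, lay 35 KO-only peaks (5.40%, 3.79 to 7.43) and 3 FM-only peaks (1.58%, 0.327 to 4.54), beside 2.55% and 2.39% of all strong peaks. Part of the 35 came from runs at single loci, among them 6 peaks at Sfi1 on chromosome 11 and 3 near Gm10410 on chromosome 14. The interval counts such peaks as independent, and the share without these loci was not computed.

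**Figure D5:**
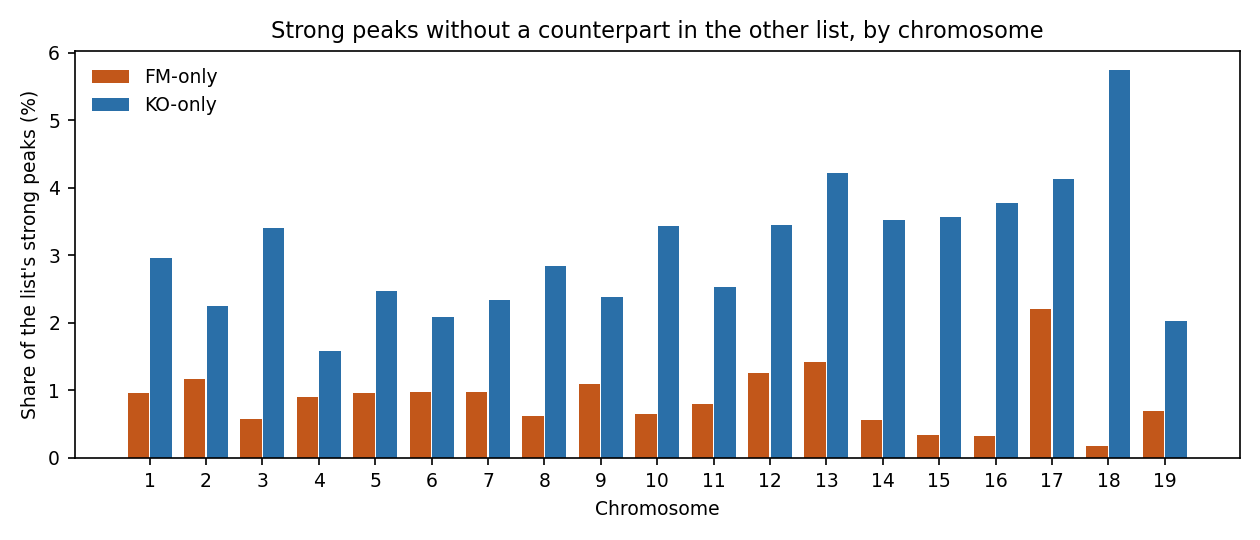
FM-only and KO-only peaks on each autosome (x axis) as a share of the peaks of that list with a −log10 q of at least 20 (y axis, %). The KO-only share was above the FM-only share on each of the 19 autosomes, most on chromosome 18 (5.74% against 0.169%), and the FM-only share was highest on chromosome 17 (2.20%).

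None of the peaks lay within 100 kb of Mixl1. Of 69 genes in 5 lists of early lineages, 8 (11.6%) had an FM-only peak within 100 kb and 12 (17.4%) a KO-only peak, beside 3.38% and 7.84% of all 20661 autosomal protein-coding genes, with no test. Of 17 streak and mesendoderm genes, 4 had an FM-only peak within 100 kb and 4 a KO-only peak. On the FM side these were Eomes, a T-box factor of the streak (20.2 kb, fold 3.47, pileup 123), Lhx1, a LIM homeobox factor of the organizer (24.2 kb, 3.08), Sp5, a target of Wnt signalling (59.1 kb, 3.35), and Mesp1, a bHLH factor of early mesoderm (67.6 kb, 2.88). Sp5 and Mesp1 had other genes nearer to the peak, Erich2 and Anpep. On the KO side they were the ligand genes Wnt3 (66.9 kb, 3.42, with Nsf nearer) and Fgf8 (13.4 kb, 2.96), and Lefty1 and Lefty2, secreted inhibitors of Nodal, at the same peak 1.17 kb from Lefty1 (2.51). At Eomes, Fgf8 and Lefty1 both neighbours were shared, and the other list had a peak within 0.655, 1.92 and 0.191 kb.

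Among 15 pluripotency and epiblast genes, 4 had a KO-only peak and 1 an FM-only peak within 100 kb. Nanog had 2 KO-only peaks, at its promoter and 46.6 kb away nearer to Slc2a3 (folds 2.87 and 2.72). The promoter peak also lay 77.2 kb from Dppa3, a germ cell and preimplantation factor. Utf1 (24.4 kb, 2.52) and Fgf5, a marker of the primed epiblast (92.0 kb, 3.42), made up the rest. The FM-only peak 63.4 kb from Pou5f1 (2.90) was nearest to H2-Q7, a histocompatibility gene. Of 14 endoderm genes, Foxa3 had a peak of each side (44.6 kb, 2.98 for FM and 10.1 kb, 3.53 for KO), and Krt19, a keratin (8.97 kb, 3.03), and Kitl, the Kit ligand (36.1 kb, 3.48), had a KO-only peak. Of 12 neural genes, Irx3 (32.9 kb, 3.13) and Pax7 (2.90 kb, 2.41) had an FM-only peak and En1 (5.53 kb, 2.86) a KO-only one. None of 11 mesoderm genes had either. These lists were chosen with earlier results known, and with counts of 0 to 5 no direction is read from them.

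As a check of the cells, strong peaks within 1 kb of a gene end were found at 3 of 6 epiblast markers in each list, Pou5f1 and Sox2 in both, Eomes in the FM list and T in the KO list, and at neither Otx2 nor Fgf5. Fibroblast markers had one at 4 of 5 genes in the FM list, all but Thy1, and at 5 of 5 in the KO list, with folds from 2.55 to 5.08 and 2.71 to 4.42. Feeder fibroblasts were part of the culture before the embryoid bodies, and their part in peaks found in 1 list only was not tested. The share of all genes with such a peak was not computed, so the counts do not weigh 1 cell type against the other. A peak near a gene end need not lie at the promoter, and it does not show that a gene was expressed.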

How the data were processed

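The 6 libraries are represented by 2 headerless peak lists, 1 per group. The submitters' processing notes name bcl2fastq, Bowtie2, SAMtools, MACS2 and mm10, without versions. Read filters, the Tn5 shift and how libraries were pooled are not given in the sources consulted, and the depth in reads is unknown. The authors' deposited values per peak are a fold (ratio of summit pileup to local background) and −log10 of the p-value and q-value. The lowest −log10 q was 1.30 in both lists.

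Rows of equal start and end were collapsed to the highest −log10 p, leaving 205974 FM and 139351 KO peaks, and overlap meant 1 bp. Pileup and background were solved from fold and p with the Poisson upper tail and kept where whole within 0.02; this held for 4000 of 4000 FM and 3999 of 4000 KO peaks sampled. Genes (21896 protein-coding) and promoter sequences came from RefSeq tables of GRCm38.p6. No genome was used, so sequence was read at promoters only. Distances run from the summit. Intervals are exact binomial (Clopper-Pearson, 95%). Python 3.11.15, pandas 2.3.3 and scipy 1.17.1 were used, and the procedures were tested on simulated data. Named genes are the 15 peaks of highest fold, the 5 widest and the 5 in the longest stretches per side, genes nearest to at least 2 peaks, and genes of the lineage lists. A few peaks that this rule names are not reported here. Members and lists were chosen with earlier results of these data known. The shared set of −log10 q from 20 to 30, the promoter copies, the mapped loci, the dense stretches and the first 5 Mb were chosen after seeing the values. Alternatives for threshold, overlap, width, isolation, gene distance and neighbours were run.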

Additional observations from a re-analysis of the deposited data

Results flagged for a closer look

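Strong peaks found in 1 list only also lay outside the autosomes, on sequences the comparisons above did not use. On the X chromosome there were 5 in the FM list, of 350 strong peaks, and 8 in the KO list, of 425. On the Y chromosome there were 5 in the FM list, of 29, and 12 in the KO list, of 42. On sequences not placed on a chromosome there were 37 in the KO list, of 108 strong peaks, beside 1 of 71 in the FM list.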

How the results depend on the processing

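Over 15 results and 14 alternative settings, 57 of 104 values stayed within the counting interval of the reported value (for counts of peaks, within 1.5 times) and 47 did not; the cause was not tested beyond what each setting does. At a −log10 q of at least 15 there were 1037 FM-only and 1379 KO-only peaks (FM share 42.9%), 75.9% and 75.4% had another of their side within 1 Mb, the median stretches were 13.3 and 16.0 kb, and 3.99% of KO-only peaks were broad. At 30 there were 23 and 183 (11.2%), with median stretches of 24.3 and 37.4 kb and broad shares of 13.0% and 11.5%. The FM sharp isolated share was then 21.7%, both neighbours were shared for 30.6% of KO-only peaks, and 35.5% of those had another within 1 Mb. With no peak of the other list within 1 kb, both FM neighbours were shared in 15.4%, 16.9% (FM) and 45.6% (KO) had another within 1 Mb, the stretches were 26.3 and 41.9 kb, and the KO sharp isolated and gene end shares were 18% and 4.09%. Counting peaks covered by less than 50% gave 639 and 1215 (FM share 34.5%), sharp isolated shares of 2.35% and 7.74%, broad shares of 29.6% and 15.7%, 65.6% and 70.8% with another within 1 Mb, and a KO gene end share of 8.23%. Stretches could not be computed there. The KO sharp isolated share was 9.26% with a sharp limit of 400 bp, 19.3% with isolation of 5 kb and 9.57% with 20 kb, where the FM share was 3.68%. Broad from 800 bp gave 14.7% and 14.4%, and gene ends within 5 kb 27.4% and 18.8%. With only peaks of −log10 q of at least 5, both neighbours were shared for 38.4% and 49.5%, and stretches were 30.5 and 34.0 kb. No paired analysis was possible because each group has 1 peak list, although its libraries carry replicate numbers, and for the same reason no library could be left out.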
